A study of Rattus norvegicus with 82 samples.

Results

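The creatine kinase energy shuttle was followed through 6 genes in cardiomyocytes of the right ventricle (RV) and left ventricle (LV) of banded and sham-operated rats: Ckm, Ckb, Ckmt2, Slc6a8, Ak1 and Ak3. The genes were taken by symbol, and all 6 were found among the 17337 genes of the count table. All 6 also passed the filter on low counts that left 11954 genes for testing.

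Creatine kinases move the high-energy phosphate of ATP onto creatine and back. In heart muscle a mitochondrial form makes phosphocreatine next to the site where ATP is exported, and cytosolic forms at the myofibrils and ion pumps turn it back into ATP where it is spent. Cardiomyocytes do not depend on their own creatine synthesis but take creatine up through a transporter in the cell membrane, and adenylate kinases form a parallel route that regenerates ATP and ADP from spent nucleotides. Among the 6 genes, Ckm encodes the muscle form and Ckb the brain form of cytosolic creatine kinase, which form homodimers and a mixed dimer. Ckmt2 encodes the sarcomeric mitochondrial form, Slc6a8 the creatine transporter, Ak1 the main cytosolic adenylate kinase of muscle, and Ak3 an adenylate kinase of the mitochondrial matrix that uses GTP.

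Total RNA was sequenced from RV and LV cardiomyocytes of 41 rats, giving 82 libraries. All rats were the F1 offspring of Wistar Kyoto mothers and Lewis fathers, of either sex (21 males). A clip that did not constrict at first was placed around the pulmonary artery (PAB, loading the RV) or the aorta (AOB, loading the LV), and sham-operated rats served as controls. Animals were taken at a compensated stage of hypertrophy (H) or at decompensation (F). The H animals (7 Sham-H, 6 PAB-H and 6 AOB-H) were 11 weeks old and were sampled after 7 weeks. The F animals comprised 9 Sham-F and 7 AOB-F rats of 31 weeks, sampled after 26 weeks, and 6 PAB-F rats of 28 weeks, sampled after 22 weeks. The ages come from the labels' age field, while the study's text and the labels' treatment text give other ages. By the age field PAB-F rats were younger than their Sham-F controls, and age and banding cannot be fully told apart there. Each animal gave 1 RV and 1 LV library.

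The libraries held between 6675287 and 19665439 counts assigned to genes. Cells were released with collagenase and enriched by low-speed centrifugation, so other heart cells could remain. Counts on a list of 9 ventricular cardiomyocyte markers made up 4.58% to 12.3% of a library, whereas 7 endothelial markers took at most 0.567% and 10 fibroblast markers at most 0.333%. 4 markers listed as atrial (Sln, Myl4, Myl7 and Nppa) reached 0.859% in RV PAB-F replicate 1. The paper has Nppa and Myl4 among its PAB-regulated genes, so atrial cells and a response to load cannot be told apart by this share. LV AOB-F replicates 6 and 7 held the lowest cardiomyocyte shares of all libraries (4.58% and 4.69%), and the LV library of AOB-H replicate 6 had the lowest total and the highest endothelial share. The main tests of the 6 genes that rest on these libraries are therefore given with and without them. Ratios and correlations were computed with all libraries only.

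Promoter sequence was available for 5 of the 6 genes (not for Ak1) from RefSeq, build GRCr8, as the 250 bases before the annotated start. The 3 creatine kinase promoters are printed because the 3 genes differed from each other in how they varied across the groups. They lie at chr1:88189211-88189460 on the plus strand (Ckm), chr6:136553465-136553714 on the minus strand (Ckb) and chr2:24845512-24845761 on the minus strand (Ckmt2), each written 5′ to 3′ on the strand of the gene. Capitals mark matches, on either strand, to 4 motifs of muscle and energy genes: the E box CANNTG, the estrogen-related receptor motif AAGGTCA, the MEF2 site and the CArG box.
Ckm: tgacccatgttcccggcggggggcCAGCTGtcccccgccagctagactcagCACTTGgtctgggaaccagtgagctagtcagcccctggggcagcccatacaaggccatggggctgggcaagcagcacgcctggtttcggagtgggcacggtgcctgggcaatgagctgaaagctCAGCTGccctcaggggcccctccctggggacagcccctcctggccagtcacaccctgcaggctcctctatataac
Ckb: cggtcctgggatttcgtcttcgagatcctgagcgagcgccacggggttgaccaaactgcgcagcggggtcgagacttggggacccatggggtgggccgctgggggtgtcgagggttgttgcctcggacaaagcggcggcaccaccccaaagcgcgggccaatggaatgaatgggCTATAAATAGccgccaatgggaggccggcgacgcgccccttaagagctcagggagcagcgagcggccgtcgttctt
Ckmt2: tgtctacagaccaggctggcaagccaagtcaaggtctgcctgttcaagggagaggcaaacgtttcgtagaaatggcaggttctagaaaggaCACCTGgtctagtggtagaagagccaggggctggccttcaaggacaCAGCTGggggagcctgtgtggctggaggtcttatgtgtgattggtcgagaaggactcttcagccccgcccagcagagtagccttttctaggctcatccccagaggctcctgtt
Ckm held 3 E boxes and Ckmt2 held 2. Ckb had no E box but 1 MEF2 match, CTATAAATAG, at 76 to 67 bases before the start. No match overlapped another. E boxes are common, standing in 65.5% of 33469 rat promoter windows of this length, and the MEF2 pattern stood in 2.96% of them. Slc6a8 held 1 E box and Ak3 held no match. A match is a run of letters and was not tested as a binding site.

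Per length of transcript, the shuttle was led by 2 genes of nearly the same level. The median over the 82 libraries was 2065 FPKM (fragments scaled to transcript length and library size) for Ckm and 2032 FPKM for Ckmt2, the 18th and 19th highest medians of all genes. Ckb stood at 160 FPKM, Ak1 at 112, Slc6a8 at 111 and Ak3 at 110, so the cytosolic brain form, the creatine transporter and both adenylate kinases were more than 10 times less abundant than the leading pair. Levels below are normalized counts (raw counts scaled to a common library size) and are compared only within a gene.

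Ckm, the muscle creatine kinase, was highest in the LV of older sham animals and lowest in the failing RV. In the RV its mean was 41120.4 ± 1279 (SD, n = 7) in Sham-H, 33503 ± 6081 (n = 6) in PAB-H, 40944 ± 3926 (n = 6) in AOB-H, 36624 ± 3349 (n = 9) in Sham-F, 27123 ± 7504 (n = 6) in PAB-F and 31794 ± 5969.8 (n = 7) in AOB-F. In the LV of the same animals it was 49806 ± 12482, 42978 ± 6640.4, 36101 ± 8225, 63577 ± 13549.6, 52729 ± 17306 and 40454 ± 15491 in the same order of conditions. The highest group mean was 2.34 times the lowest, but groups that were neighbours in the order of means never differed by more than the larger of their SDs.

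Ckb, the brain form, had a higher mean in the LV than in the RV in all 6 conditions. Its means in the RV were 2734 ± 344 in Sham-H, 3153 ± 546 in PAB-H, 2723 ± 242 in AOB-H, 2291 ± 277 in Sham-F, 2929 ± 871 in PAB-F and 2253 ± 614 in AOB-F. LV means were 3949 ± 1265, 3463 ± 527, 3135 ± 677, 4939.6 ± 1158, 4761 ± 1563 and 4038 ± 1988 in the same order. The range of group means was 2.19-fold, and of 11 neighbouring pairs 1, RV AOB-H and RV Sham-F, was farther apart than the larger SD.

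Ckmt2, the mitochondrial form, was the most even of the creatine kinases, with a 1.5-fold range of group means. It averaged 33257 ± 1107 in the RV of Sham-H, 27670.4 ± 4726 in PAB-H, 32596 ± 5071 in AOB-H, 34010.1 ± 3388 in Sham-F, 29227 ± 6057 in PAB-F and 36199 ± 5408 in AOB-F. The LV values were 35143 ± 5583, 33412 ± 3091, 30324 ± 7674, 32887 ± 7774, 30381 ± 3972 and 24105 ± 3522. Its highest and lowest group means were the RV and the LV of the same AOB-F animals.

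Slc6a8, the creatine transporter, varied least of all 6 genes, with group means within a 1.33-fold range. RV means were 6096 ± 587 in Sham-H, 5761 ± 1189 in PAB-H, 6434 ± 549 in AOB-H, 5455 ± 681 in Sham-F, 5037 ± 913 in PAB-F and 5159 ± 1057 in AOB-F. Those of the LV were 6659 ± 924, 6137 ± 612, 6042 ± 1376, 6679 ± 888, 5984 ± 891 and 5588 ± 1002. No neighbouring means were separated by more than the larger SD.

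The 2 adenylate kinases had opposite extremes. Ak1 had its highest mean in the LV of Sham-F and its lowest in the RV of PAB-F, a 1.95-fold range, with RV means of 2835 ± 228 in Sham-H, 2499 ± 278 in PAB-H, 2693 ± 471 in AOB-H, 2608 ± 264 in Sham-F, 1931 ± 586 in PAB-F and 2627 ± 324 in AOB-F. Ak1 in the LV averaged 3421 ± 720.1, 3031 ± 368, 2525 ± 617, 3766 ± 991, 3344 ± 792 and 3145 ± 948. Ak3 was instead highest in the RV of AOB-F and lowest in the LV of PAB-F, a 1.81-fold range. Ak3 averaged 1716 ± 65.2, 1531 ± 139, 1688 ± 238, 1829 ± 163, 1489 ± 265 and 1877 ± 165 in the RV. In the LV the Ak3 means were 1440.0 ± 264, 1522 ± 219.7, 1436 ± 332, 1043 ± 206, 1036 ± 232 and 1188 ± 179.8. Neighbouring means stayed within the larger SD for both genes.

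**Figure D1:**
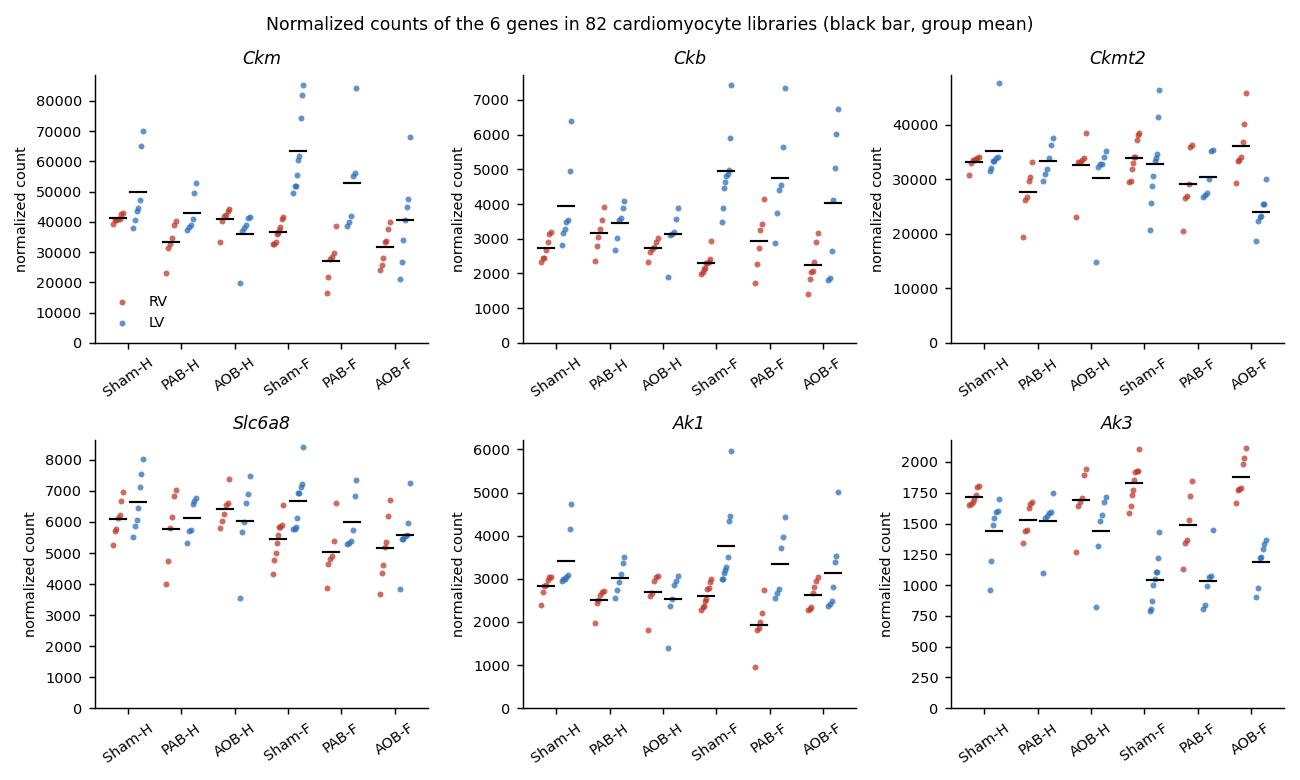
Normalized count of each gene (y axis, starting at 0) in every library, by condition and ventricle (x axis), with the group mean as a black bar. Ckm, Ckb and Ak1 had their highest mean in the LV of Sham-F, and Ak3 its 3 lowest means in the LV of Sham-F, PAB-F and AOB-F.

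Among the comparisons made, the most calls among the 6 genes were found between the ventricles of older sham animals. In the RV of Sham-F, Ckm lay between 32601 and 41696 with a median of 36482, and in the LV it lay between 49591 and 85251 with a median of 60449.6. No RV library reached the lowest LV library. On the log2 scale the RV was lower by 0.80 ± 0.15 (SE) for Ckm in edgeR's quasi-likelihood test with Benjamini-Hochberg adjustment over all genes (adjusted p = 2.68e-06). Ckb was between 1981 and 2928 with a median of 2301 in the RV and between 3489 and 7429.7 with a median of 4809 in the LV, again without overlap, a log2 difference of -1.11 ± 0.18, adjusted p = 6.1e-08. The mitochondrial Ak3 went the other way. It lay between 1586 and 2106 with a median of 1849.8 in the RV and between 792 and 1432 with a median of 1053 in the LV, so that every RV library exceeded every LV library (0.81 ± 0.11, adjusted p = 7.87e-10). How many of all genes had ranges without overlap was not counted, here or in the comparisons below.

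Ak1 was also lower in the RV of Sham-F, although the ranges overlapped. It lay between 2277 and 2995 with a median of 2536 in the RV and between 2994 and 5973 with a median of 3281 in the LV (-0.53 ± 0.14, adjusted p = 0.000446). Slc6a8 lay between 4318 and 6546 with a median of 5577 in the RV and between 5761 and 8404 with a median of 6934 in the LV. This smaller difference (-0.29 ± 0.11, adjusted p = 0.0139) was lost without the low-count filter (adjusted p = 0.0789) and without RV Sham-F replicate 1, 2 or 3 or LV Sham-F replicate 2 (adjusted p up to 0.0828). Ckmt2 gave 0.05 ± 0.12, adjusted p = 0.718, with a 95% interval of -0.18 to 0.28. Thus 5 of the 6 genes passed the test, 4 lower and 1 higher in the RV, where 74.3% of all genes tested passed it, and the count of the 6 is close to that background. The median log2 difference of the 6 genes was -0.41, and that of all genes -0.07.

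Markers of other cells were lower in the RV too. In Sham-F, endothelial markers took 0.0962% of the counts in the RV (range 0.0724% to 0.121%) and 0.277% in the LV (0.176% to 0.426%), and 6 of 7 were lower in the RV. Of 9 fibroblast markers tested 6 were lower in the RV, as were 5 of 7 mural markers, and of 9 cardiomyocyte markers 4 were higher and 3 lower. Their part in the differences was not tested, and in bulk samples fewer cells of a type and less RNA per cell cannot be told apart.

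In PAB-F, 4 of these 5 genes differed between the ventricles in the same direction. Ckm lay between 16543 and 38615 with a median of 28028 in the RV and between 38679 and 84389 with a median of 48642 in the LV, with no overlap (-0.96 ± 0.18, adjusted p = 9.68e-06). Ak1 (-0.79 ± 0.17, adjusted p = 5.06e-05) and Ckb (-0.70 ± 0.21, adjusted p = 0.00368) were lower in the RV and Ak3 was higher (0.52 ± 0.13, adjusted p = 0.000561), with overlapping ranges. Thus 4 of the 6 genes passed, where 61.2% of all genes did. Of 7 endothelial and 7 mural markers 5 each were lower in the RV here. Of 9 fibroblast markers tested 2 were higher and 4 lower, and of 9 cardiomyocyte markers 3 were higher and 3 lower. Their part was not tested. Slc6a8 gave -0.25 ± 0.13, adjusted p = 0.102, and passed when the animal was a block in the fit (adjusted p = 0.0232) and without RV PAB-F replicate 4 (adjusted p = 0.0292).

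In AOB-F, both genes of mitochondrial proteins were higher in the RV. Ckmt2 lay between 29391 and 45845 with a median of 34059.8 in the RV and between 18634 and 30101 with a median of 23377 in the LV. The 2 ranges met in a narrow band, and the RV was higher in 7 of 7 animals (0.59 ± 0.13, adjusted p = 0.0001). Ak3 was higher in the RV without overlap (0.66 ± 0.12, adjusted p = 4.25e-06) and Ckb lower (-0.84 ± 0.20, adjusted p = 0.000174), while 67.1% of all genes passed. Ckm gave -0.35 ± 0.17, adjusted p = 0.0643. It passed without any 1 of RV AOB-F replicates 3 and 4 and LV AOB-F replicates 6 and 7 (adjusted p down to 0.0142). When LV AOB-F replicates 6 and 7 were left out, Ckm (-0.56, adjusted p = 0.00354) and Ak1 (-0.38, adjusted p = 0.0404) passed as well, making 5 of 6. With libraries scaled to cardiomyocyte markers in place of all genes, Ckmt2 no longer passed (0.23, adjusted p = 0.0642), while the median of all genes moved from -0.05 to -0.41 in this comparison. In AOB-F 7 of 7 endothelial, 7 of 9 fibroblast, 7 of 8 macrophage and 5 of 7 mural markers were lower in the RV, and of 9 cardiomyocyte markers 4 were higher and 1 lower. The endothelial share was 0.104% in the RV (0.0859% to 0.129%) and 0.336% in the LV (0.214% to 0.424%), and the part of these cells in the result was not tested.

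Between the ventricles of the younger animals, 1 call was made. In Sham-H, Ckb lay between 2344 and 3182 with a median of 2684 in the RV and between 2829.7 and 6387 with a median of 3493 in the LV. These ranges overlapped, and Ckb passed the test (-0.53 ± 0.20, adjusted p = 0.0465), with 21% of all genes passing. The Ckb call was lost in 10 of 14 fits that each left out 1 library (adjusted p up to 0.271), and with the animal as a block Ak3 passed too (0.28, adjusted p = 0.0411). 5 of 7 endothelial and 3 of 7 mural markers were lower in the RV of Sham-H as well. In PAB-H and AOB-H 0 of the 6 genes passed by edgeR or DESeq2, and 0 had an unadjusted p under 0.05, where 0.125% and 7.98% of all genes passed.

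Counted by animal, 5 of the 6 genes lay in 1 direction in at least 19 of the 22 older rats. This count was not made over all genes, of which 74.3% (Sham-F), 61.2% (PAB-F) and 67.1% (AOB-F) passed between the ventricles. Whether the 6 genes stand out by it was therefore not tested. Among 22 F animals Ckb was lower in the RV in 22 (median log2 difference -0.88), Ckm in 21 (-0.60), Ak1 in 20 (-0.45) and Slc6a8 in 19 (-0.21), whereas Ak3 was higher in the RV in 21 (0.80) and Ckmt2 in 15 (0.16). For Ckmt2 this was made up of 7 of 7 animals in AOB-F, 5 of 9 in Sham-F and 3 of 6 in PAB-F. Among 19 H animals Ckb was lower in the RV in 15 (-0.30), Ak1 in 13 (-0.07), Ckm in 11 (-0.04) and Slc6a8 in 10 (-0.02), and Ak3 was higher in 16 (0.14) and Ckmt2 in 9 (-0.01).

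**Figure D2:**
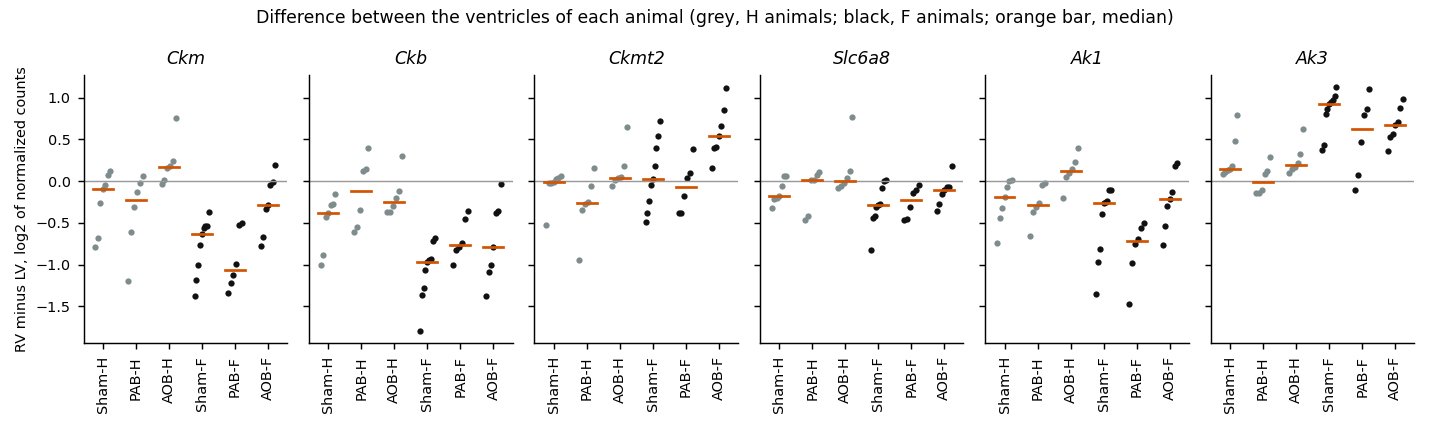
Difference in log2 normalized count between the RV and LV library of each animal (y axis) by condition (x axis), for each gene, with H animals in grey, F animals in black and the median as an orange bar. Among the 22 F animals, 22 lie below 0 for Ckb and 21 lie above 0 for Ak3. The same count was not made over all genes.

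Between the younger and the older sham animals, 1 call was made, in the LV. In the LV, Ak3 went from values between 959 and 1696 with a median of 1546 in Sham-H to values between 792 and 1432 with a median of 1053 in Sham-F. The ranges overlapped, and Ak3 fell by 0.46 ± 0.12 on the log2 scale (adjusted p = 0.000552). It was the 1 gene of 6 to pass, against 57.4% of all genes. In the same comparison 5 of 9 fibroblast, 5 of 7 mural, 3 of 8 macrophage and 2 of 7 endothelial markers rose, and of 9 cardiomyocyte markers 4 fell and 2 rose. Their part in the Ak3 result was not tested. Ckm gave 0.35 ± 0.16, adjusted p = 0.0544 and Ckb 0.32 ± 0.19, adjusted p = 0.134. Ckm passed with RLE size factors (0.37, adjusted p = 0.0431), in DESeq2 (adjusted p = 0.0364) and with cardiomyocyte marker scaling (0.47, adjusted p = 0.00243). In the RV 0 of 6 genes passed between the ages by edgeR or DESeq2, and 0 had an unadjusted p under 0.05, with 0.0502% of all genes passing.

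Whether the RV-to-LV difference itself changed between Sham-H and Sham-F was tested as an interaction. Ak3 passed (0.56 ± 0.17, adjusted p = 0.00582), where 41.6% of all genes did. Ckm gave -0.52 ± 0.23, adjusted p = 0.0568 and Ckb -0.58 ± 0.26, adjusted p = 0.0703. With the animal as a block, which uses the fact that each rat gave both libraries, both passed (Ckm -0.53, adjusted p = 0.0135 and Ckb -0.60, adjusted p = 0.00529).

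In the LV, the muscle and the mitochondrial creatine kinase were lower in decompensated AOB animals than in sham animals. In the LV of Sham-F, Ckm lay between 49591 and 85251 with a median of 60449.6, and in AOB-F it lay between 21122 and 68166 with a median of 40719. 6 of 7 AOB-F libraries lay below every Sham-F library and replicate 4 lay among them, and Ckm fell by 0.65 ± 0.16 on the log2 scale (adjusted p = 0.00484). Ckmt2 lay between 20776 and 46484 with a median of 33319 in Sham-F and between 18634 and 30101 with a median of 23377 in AOB-F, and fell by 0.45 ± 0.13 with overlapping ranges (adjusted p = 0.0127). These were 2 of 6 genes, against 12.9% of all genes. The other 4 did not pass, with log2 values of -0.29 ± 0.19, adjusted p = 0.303 for Ckb, -0.26 ± 0.12, adjusted p = 0.132 for Slc6a8, -0.26 ± 0.15, adjusted p = 0.235 for Ak1 and 0.19 ± 0.12, adjusted p = 0.284 for Ak3. The median of the 6 was -0.28, against 0.04 for all genes.

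These calls rested on few libraries. LV AOB-F replicates 6 and 7 had 0.0541% and 0.0661% of counts in macrophage markers, the highest shares of all libraries, beside their low cardiomyocyte shares. Without both, 0 of the 6 genes passed, with Ckm at -0.43 ± 0.17 (adjusted p = 0.127) and Ckmt2 at -0.41 ± 0.14 (adjusted p = 0.0876), and the genes called among all fell from 1541 to 366. Ckb was then at -0.002 ± 0.18 (adjusted p = 0.998). Without LV Sham-F replicate 7, Ckmt2 was at -0.36 (adjusted p = 0.0514). In the group as a whole 5 of 8 macrophage markers rose and 1 of 9 cardiomyocyte markers fell, and the cardiomyocyte share averaged 7.17% against 9.19% in Sham-F. With libraries scaled to cardiomyocyte markers, which moved the median of all genes in this comparison from 0.04 to 0.34, Ckm still fell (-0.39, adjusted p = 0.0163), Ckmt2 did not pass (-0.15, adjusted p = 0.273) and Ak3 was higher (0.50, adjusted p = 0.00186).

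At the hypertrophic stage of AOB 0 of the 6 genes passed in the LV by edgeR or DESeq2, where 0.0167% of all genes passed, and 2 of the 6 had an unadjusted p under 0.05. Ckm lay between 19753 and 41754 with a median of 38444 in AOB-H and between 37907 and 69939.7 with a median of 44558 in Sham-H, giving -0.46 ± 0.18, adjusted p = 0.148, and Ak1 gave -0.44 ± 0.16, adjusted p = 0.142. The lowest values belonged to AOB-H replicate 6, and without its libraries Ckm was at -0.33 (adjusted p = 0.381) and Ak1 at -0.30 (adjusted p = 0.37).

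In the RV of PAB animals the means of Ckm and Ak1 were lower and that of Ckb higher than in sham animals, but no gene passed the test. In PAB-F, Ak1 lay between 957 and 2749 with a median of 1937, and in the RV of Sham-F between 2277 and 2995 with a median of 2536. 5 of 6 PAB-F libraries lay below every Sham-F library, yet the test missed the threshold (-0.43 ± 0.16, adjusted p = 0.0567). Ckm lay between 16543 and 38615 with a median of 28028 in PAB-F and between 32601 and 41696 with a median of 36482 in Sham-F (-0.43 ± 0.17, adjusted p = 0.0795). The ranges of Ckm overlapped, as did those of the next 2 genes. Ak3 lay between 1129 and 1848 with a median of 1445 in PAB-F and between 1586 and 2106 with a median of 1849.8 in Sham-F (-0.30 ± 0.12, adjusted p = 0.0996). Ckb lay between 1725 and 4156 with a median of 2996 in PAB-F and between 1981 and 2928 with a median of 2301 in Sham-F and gave 0.35 ± 0.19, adjusted p = 0.223. Ckmt2 gave -0.22 ± 0.13, adjusted p = 0.275 and Slc6a8 -0.11 ± 0.12, adjusted p = 0.569. Thus 0 of 6 passed by edgeR, 3 had an unadjusted p under 0.05, and DESeq2 called 1, where 11.1% of all genes passed. The median log2 value of the 6 was -0.26, against 0.02 over all genes.

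Single libraries moved this result in both directions. Without RV PAB-F replicate 4, which had the highest Ckm, Ak1 and Ak3 of its group, Ckm (-0.56, adjusted p = 0.0254), Ak1 (-0.56, adjusted p = 0.0146) and Ak3 (-0.37, adjusted p = 0.0451) were lower. Without RV PAB-F replicate 1, which had the lowest values of these 3 genes, a cardiomyocyte share of 6.06% and an atrial share of 0.859%, Ak1 was at -0.30 (adjusted p = 0.317) and Ckm at -0.32 (adjusted p = 0.334). Ak1 passed under 5 other settings, among them DESeq2 (adjusted p = 0.0337). With cardiomyocyte marker scaling, which moved the median of all genes in this comparison from 0.02 to 0.24, Ckb was higher (0.59, adjusted p = 0.0187). Of 9 fibroblast markers tested 6 rose in PAB-F, as did 4 of 8 macrophage markers and 2 of 4 on the atrial list, and their part was not tested. The atrial list includes Nppa, which the paper reports to increase in the failing RV.

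In PAB-H 0 of 6 genes passed in the RV by edgeR or DESeq2 and 0 had an unadjusted p under 0.05, where 4.5% of all genes passed. Ckm lay between 23195 and 40136 with a median of 33705 in PAB-H and between 39232 and 43032 with a median of 40796 in Sham-H, and 5 of 6 PAB-H libraries lay below every Sham-H library (-0.30 ± 0.18, adjusted p = 0.355). Ckmt2 gave -0.27 ± 0.14, adjusted p = 0.271, and Ckb 0.21 ± 0.21, adjusted p = 0.637. All 9 fibroblast markers tested rose here.

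The ventricle that was not loaded showed no call. In the LV of PAB animals 0 of 6 genes passed at either stage by edgeR or DESeq2, against 0% of all genes at H and 0% at F (305 and 453 genes with an unadjusted p under 0.05). In the RV of AOB animals the counts were also 0 of 6, against 0% of all genes at H (171 with an unadjusted p under 0.05) and 0.0669% at F. None of the 6 genes had an unadjusted p under 0.05 in these 4 comparisons. In the F animals, Ckm gave -0.27 ± 0.17 in the LV of PAB-F and -0.20 ± 0.16 in the RV of AOB-F. The difference between loaded and unloaded ventricle was not shown for any member: 0 of 6 passed for PAB-F (0.351% of all genes) and 0 of 6 for AOB-F (0% of all genes, 1161 with an unadjusted p under 0.05), by edgeR and DESeq2. The value nearest to a call was Ckmt2 in AOB-F (-0.54 ± 0.18, adjusted p = 0.432). Without LV AOB-F replicates 6 and 7 this value was -0.49 ± 0.19 (adjusted p = 0.524). For the RV response to PAB, 0 of 6 passed between F and H by edgeR or DESeq2 (0% of all genes, 177 with an unadjusted p under 0.05).

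**Figure D3:**
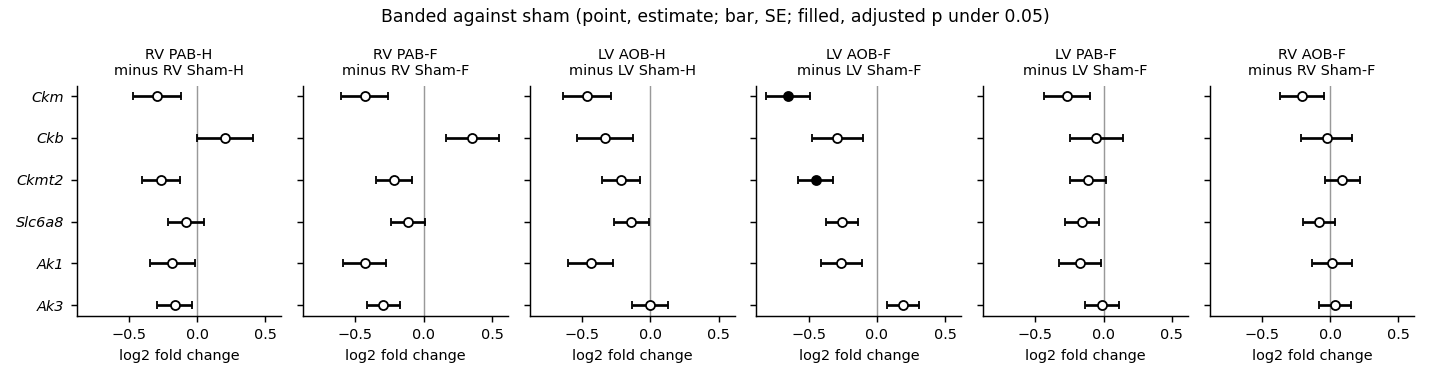
Log2 fold change of each gene (x axis) in banded against sham animals, with the SE as a bar and filled points for an adjusted p under 0.05. Panels show the loaded ventricle at both stages and the unloaded ventricle of F animals (LV of PAB-F and RV of AOB-F). Filled points are seen for Ckm (-0.65) and Ckmt2 (-0.45) in the LV of AOB-F, and all RV points are open.

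Ckb differed by sex in the LV. Over all conditions, LV Ckb lay between 3169 and 7430 with a median of 4537 in 21 males and between 1820 and 6387 with a median of 3177 in 20 females. The ranges overlapped widely, but the male mean of normalized counts was higher in 5 of 6 conditions, all but Sham-H, and the test across conditions gave a log2 difference of 0.53 ± 0.12, adjusted p = 0.00434. This was 1 gene of 6, against 9.9% of all genes. Ak1 gave 0.29 ± 0.10, adjusted p = 0.0569 and Ckm 0.28 ± 0.12, adjusted p = 0.129. Without LV AOB-F replicates 6 and 7, both female, an alternative chosen after seeing the data, Ckb still passed (0.41 ± 0.11, adjusted p = 0.0264), and 5.32% of all genes did. In the RV 0 of 6 genes passed by edgeR or DESeq2 and 0 had an unadjusted p under 0.05 (8.38% of all genes). RV Ckb gave 0.15 ± 0.08, adjusted p = 0.263, and the sex difference was not compared between ventricles.

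The AOB-F response in the LV was then taken apart by sex, a comparison added after the data had been seen. In females Ckm lay between 49591 and 81865 in 5 Sham-F libraries and between 21122 and 33979 in 3 AOB-F libraries. The 2 sets did not overlap (-1.15 ± 0.26, adjusted p = 0.00268). Ckb lay between 3489 and 4985 and between 1819.9 and 2657, also apart (-1.0 ± 0.23, adjusted p = 0.00392). These were 2 of 6 genes, against 14% of all genes. In males Ckm lay between 51700.5 and 85251 in 4 Sham-F and between 40719 and 68166 in 4 AOB-F libraries, and Ckb between 4625 and 7429.7 and between 4119 and 6748. Both overlapped, and 0 of 6 genes passed in edgeR (0% of all genes, 430 with an unadjusted p under 0.05). The difference between the sexes did not pass for Ckm (0.77 ± 0.35, adjusted p = 0.332) or Ckb (0.95 ± 0.32, adjusted p = 0.162), where 0.76% of all genes passed, so that a sex difference in the response was not shown. LV AOB-F replicates 6 and 7, of low cardiomyocyte share, are both female, and without replicate 7 neither gene passed in females (adjusted p = 0.0631 and 0.0675). Sex and library makeup cannot be told apart here.

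**Figure D4:**
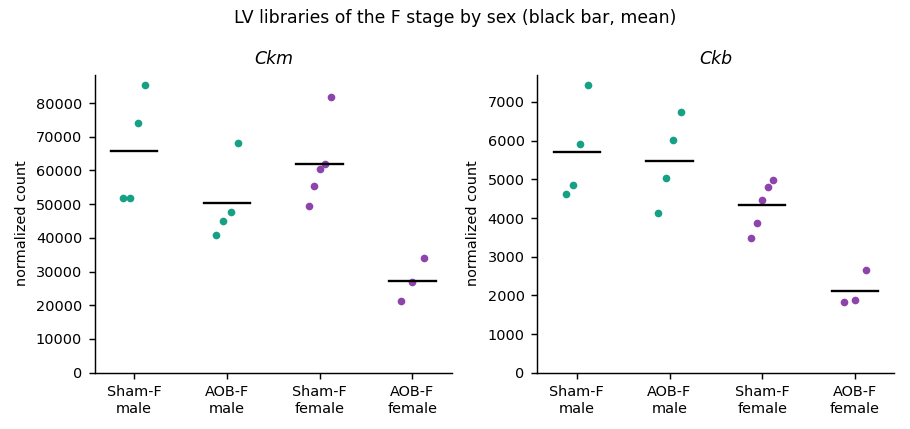
Normalized counts (y axis, starting at 0) of single LV libraries of the F stage by sex and group (x axis), with means as black bars. The 3 female AOB-F libraries lie between 21122 and 33979 for Ckm, below all 5 female Sham-F libraries.

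Ratios within a library do not depend on how libraries are scaled, and were compared by two-sided exact permutation tests of log2 FPKM ratios, 48 in all, also added after the data had been seen. None passed after adjustment, the lowest adjusted p being 0.0559. The share of Ckb in cytosolic creatine kinase FPKM (Ckb over Ckb plus Ckm) lay between 7.46% and 11.1% with a median of 8.49% in the RV of PAB-H and between 5.46% and 7.30% with a median of 6.24% in that of Sham-H. Every PAB-H library exceeded every Sham-H library (log2 Ckb over Ckm 0.51 ± 0.11, exact p = 0.00117, adjusted p = 0.0559). This exact p is the smallest that 6 against 7 libraries allow, so even full separation could not give a lower value there. In the RV of PAB-F the share was 10.3 ± 4.22% (SD, n = 6) against 5.94 ± 0.715% (n = 9) in Sham-F, with overlapping ranges (0.78 ± 0.27, exact p = 0.00519, adjusted p = 0.0623). Within animals, Ckb over Ckm was higher in the RV in 0 of 7 Sham-H, 0 of 6 AOB-H, 1 of 9 Sham-F and 1 of 7 AOB-F rats. The ratio was higher in the RV in 5 of 6 PAB-H and 4 of 6 PAB-F rats.

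The ratio of the mitochondrial to the muscle creatine kinase was higher in the RV in every F animal, although no adjusted p passed. Ckmt2 over Ckm averaged 1.13 ± 0.189 in the RV and 0.638 ± 0.160 in the LV of Sham-F, higher in the RV in 9 of 9 animals (0.85 ± 0.20, exact p = 0.00391, adjusted p = 0.0623). The same direction held in 6 of 6 PAB-F animals (0.88) and 7 of 7 AOB-F animals (0.87), at the smallest exact p that 6 and 7 pairs allow (0.0312 and 0.0156). The exact p of 0.00391 in Sham-F is also the smallest that 9 pairs allow, so a lower value was not possible there. Ak3 over Ak1, the matrix over the cytosolic adenylate kinase, averaged 1.26 ± 0.218 in the RV and 0.521 ± 0.173 in the LV of Sham-F, and was likewise higher in the RV in 9 of 9 Sham-F (1.33 ± 0.19, exact p = 0.00391, adjusted p = 0.0623), 6 of 6 PAB-F (1.36) and 7 of 7 AOB-F animals (0.89). In H animals Ak3 over Ak1 was higher in the RV in 7 of 7 Sham-H (0.53), 6 of 6 PAB-H (0.30) and 4 of 6 AOB-H (0.14). Ckmt2 over Ckm was mixed in H animals, higher in the RV in 5 of 7 Sham-H, 4 of 6 PAB-H and 1 of 6 AOB-H.

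**Figure D5:**
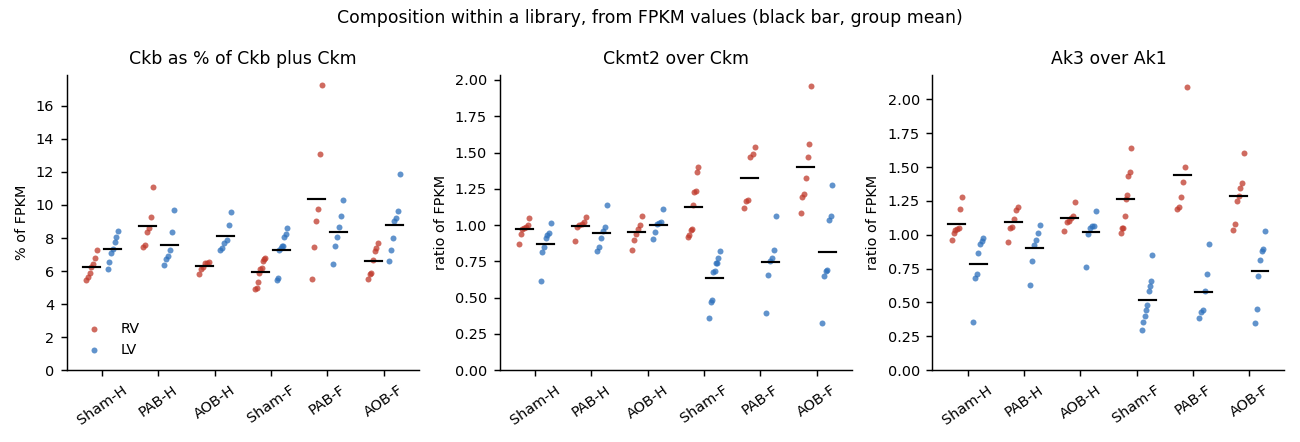
Ratios of FPKM within each library (y axis) by condition and ventricle (x axis), with the group mean as a black bar: the Ckb share of cytosolic creatine kinase, Ckmt2 over Ckm and Ak3 over Ak1. The Ckb share in the RV of PAB-H lies above every RV library of Sham-H, and both other ratios are higher in the RV than in the LV of Sham-F.

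As a description of log2 levels, with libraries that share animals, groups and scaling, the correlation of Ckm was 0.864 with Ak1, 0.748 with Ckb and 0.671 with Slc6a8, and it remained at 0.808, 0.720 and 0.590 after the group means were removed. Ckmt2 followed Ckm less (0.327). Ckb and Ak3 were opposed over the 12 group means (-0.935) but not within groups (-0.04). Ak3 also went against the endothelial marker share (-0.838) and the fibroblast share (-0.715) over the 82 libraries, as did Ckmt2 (-0.537 and -0.545). Ckb went with both (0.552 and 0.439).

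By correlation over the 82 libraries, Ckm was most like Pdk2 (0.942), a kinase that inhibits pyruvate dehydrogenase, Pink1 (0.942), a kinase of mitochondrial quality control, and Macrod1 (0.938). Ak1 was most like Bckdk (0.934), which inhibits branched-chain amino acid breakdown, Pink1 (0.906) and Eef1a2 (0.899), the muscle form of a translation elongation factor. Ckb was nearest to Gpc1 (0.923), a cell surface proteoglycan, Gas6 (0.912), a secreted ligand, and Hcn2 (0.910), a pacemaker channel subunit. Ckmt2 was nearest to Ndufs3 (0.875) of respiratory complex I, Mrps28 (0.858) of the mitochondrial ribosome and Pecr (0.838), a peroxisomal enzyme. Slc6a8 was most like Man1c1 (0.865), a Golgi mannosidase, Trak1 (0.821), an adaptor for mitochondrial transport, and Atg9a (0.798), and Ak3 most like Nap1l4 (0.934), a histone chaperone, Strap (0.934) and Sdhaf2 (0.929). Ak3 shared its pattern with many genes, 1221 having a correlation over 0.8, against 216 for Ckm, 121 for Ak1, 95 for Ckb, 6 for Ckmt2 and 2 for Slc6a8.

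The wider pathway was read from 8 lists of 53 genes, of which 44 were tested. In the RV of PAB-F, 7 of the 44 fell and 1 rose, where 11.1% of all genes passed, and the list median was -0.19 against 0.02 over all genes. Those that fell were Nt5c1a, a cytosolic AMP nucleotidase (-0.81 ± 0.18, adjusted p = 0.00151), the muscle transcription factor Mef2a (-0.74 ± 0.15, adjusted p = 0.000539), the mitochondrial adenylate kinase Ak4 (-0.66 ± 0.18, adjusted p = 0.0116), the AMPK subunit Prkab1 (-0.51 ± 0.13, adjusted p = 0.00591), Fhl2, which anchors metabolic enzymes at the sarcomere (-0.45 ± 0.14, adjusted p = 0.0336), the nuclear receptor Esrrg (-0.43 ± 0.12, adjusted p = 0.0167) and the ADP/ATP carrier Slc25a4 (-0.36 ± 0.10, adjusted p = 0.0165). Mef2a and Ak4 did not overlap between the groups, and the share of all genes without overlap was not counted. Ampd2, an AMP deaminase, rose (0.65 ± 0.22, adjusted p = 0.045), as it did in PAB-H, where it was the 1 gene of 44 to pass, against 4.5% of all genes (0.82 ± 0.23, adjusted p = 0.0313). With RV PAB-F replicate 1 left out, 2 of the 8 calls remained, Mef2a (-0.68, adjusted p = 0.00702) and Nt5c1a (-0.69, adjusted p = 0.0227). With cardiomyocyte marker scaling 5 of the 8 remained, without Fhl2, Esrrg and Slc25a4, and the list median was 0.02 against 0.24 over all genes.

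In the LV of AOB-F, 4 of the 44 rose and 3 fell, near the 12.9% of all genes that passed, and the list median was -0.03 against 0.04 over all genes. The AMP deaminase Ampd3 (0.61 ± 0.13, adjusted p = 0.0015), the mitochondrial transcription factor Tfam (0.53 ± 0.16, adjusted p = 0.0161) and the AMPK subunits Prkaa1 (0.45 ± 0.15, adjusted p = 0.0342) and Prkag2 (0.28 ± 0.10, adjusted p = 0.0496) rose. Fhl2 (-0.61 ± 0.14, adjusted p = 0.00244), the creatine synthesis enzyme Gamt (-0.50 ± 0.13, adjusted p = 0.00618) and Prkab1 (-0.35 ± 0.12, adjusted p = 0.0457) fell. With replicates 6 and 7 of AOB-F left out, only Fhl2 of these 7 still passed (-0.55, adjusted p = 0.0379). With cardiomyocyte marker scaling 17 of the 44 were higher and 1 lower, 5 of the 7 calls remained, without Gamt and Prkab1, and the list median was 0.28 against 0.34 over all genes.

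Between the ventricles of Sham-F, 23 of the 44 were higher and 10 lower in the RV, with a list median of 0.28 and the background of 74.3% given above. The adenylate kinases Ak4 (1.09 ± 0.16, adjusted p = 1.31e-08) and Ak6 (1.15 ± 0.20, adjusted p = 6.46e-07) were higher in the RV. Both creatine synthesis enzymes, Gatm (-1.17 ± 0.23, adjusted p = 4.56e-06) and Gamt (-0.59 ± 0.12, adjusted p = 1.01e-05), were lower in the RV. Of 6 genes of mitochondrial ATP export 5 were higher, led by the outer membrane channel Vdac3 (1.77 ± 0.16, adjusted p = 1.26e-15). The M-band proteins Myom1 (1.2 ± 0.16, adjusted p = 2.48e-10) and Myom2 (1.24 ± 0.17, adjusted p = 1.9e-09), to which the muscle creatine kinase binds, were higher in the RV, where Ckm itself was lower. Of the 3 genes tested in this list Fhl2 did not pass, and a relation of these genes to Ckm was not tested. Regulators of energy genes were split, with 4 higher, among them Mef2a and Ppargc1a (1.57 ± 0.19, adjusted p = 1.11e-11), a coactivator of mitochondrial genes, and 4 lower, among them Esrra (-0.86 ± 0.11, adjusted p = 2.64e-10). Between the ages of sham animals, 19 of the 44 fell and 6 rose in the LV, near the 57.4% of all genes that passed, and 0 passed in the RV by edgeR (3 with an unadjusted p under 0.05, and 0.0502% of all genes called).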

How the data were processed

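RV and LV cardiomyocyte RNA of 41 rats was sequenced as 82 rRNA-depleted, paired-end libraries. The authors trimmed reads with Trim Galore, aligned them to Rnor6.0 with STAR and counted fragments per gene with featureCounts; strand use is not given in the sources used here. They deposited raw counts, which were tested here, normalized counts from DESeq2 1.28.1, which were not used, and FPKM values, which served for levels between genes and for ratios. Columns of the authors' own comparisons (fold changes and p-values) were not used.

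Groups were taken from the sample labels. Genes with low counts were removed with filterByExpr by group in edgeR 4.0.16 (R 4.3.3), leaving 11954 of 17337. Counts were scaled by TMM and tested with the quasi-likelihood test in a model with a mean for each of 12 groups. This model did not use the pairing of the RV and LV libraries of a rat. Log2 fold changes are given with their SE (the absolute log2 fold change over the square root of F), and a gene was called at a Benjamini-Hochberg adjusted p under 0.05 over all genes. For normalized counts, each library was brought to the mean TMM-adjusted library size. The sex tests were fitted within each ventricle. Self-tests were run on simulated data. Ratios were tested with scipy 1.17.1, and figures drawn with matplotlib 3.10.9.

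The members and lists were chosen with earlier results of these data known. Genes outside the 6 were named from fixed pathway lists or as the 3 with the highest correlation with a member. Most list genes named had passed in the RV of PAB-F or the LV of AOB-F against sham. Others had the largest change of their list between the ventricles of Sham-F, and Myom1 and Esrra were named beside them. Not every list gene that passed between the ventricles of Sham-F was named. Alternatives were RLE size factors, scaling on cardiomyocyte markers, no low-count filter, sex as a covariate, a replicate block, DESeq2 1.42.0 and leaving out each library. Each label names the animal, so RV and LV libraries of 1 animal are pairs. Their deviations from the group means had a median correlation of 0.186 to 0.297 by condition, against -0.069 to -0.014 for different animals. Samples sharing a replicate number across conditions were different animals. No pair of libraries in a group agreed within counting noise (the lowest chi-square per gene was 4.89). Between 6675287 and 19665439 counts per library bound the precision of single values. Promoters came from RefSeq, build GRCr8, for 5 of 6 members.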

Additional observations from a re-analysis of the deposited data

Results flagged for a closer look

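For each of 72 sets of libraries (6 genes in 12 groups), the library standing farthest from the others was compared with Dixon's limit for the group size, which chance passes in about 1 of 20 sets, and 10 sets passed it. Of these, 5 were the lowest values of 1 animal, AOB-H replicate 6. Its Ckm was 33446 in the RV (next value 40196) and 19753 in the LV (next 36952), its Ckmt2 was 23151 in the RV (next 33155) and 14824 in the LV (next 32209), and its RV Ak1 was 1816 (next 2612). The LV library of this animal had 7.85% cardiomyocyte and 0.567% endothelial marker counts, and its RV library 0.286% endothelial marker counts, and their part in these values was not tested. The other 5 were spread over other animals. RV Ckb of Sham-F replicate 7 stood high at 2928 (next 2415), LV Ckmt2 of Sham-H replicate 4 at 47617 (next 34171) and LV Ak1 of Sham-F replicate 2 at 5973 (next 4448). RV Ckmt2 of Sham-H replicate 2 stood low at 30891 (next 32970) and LV Ak3 of PAB-H replicate 2 at 1099.5 (next 1541).

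The effect of ventricle on Ak3 differed between Sham-F and Sham-H in the test of the difference itself, by 0.56 on the log2 scale. With the animal as a block Ckm and Ckb passed this test as well.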

How the results depend on the processing

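No called log2 fold change of a member turned its direction under any setting. Member counts changed as follows. For RV PAB-F against Sham-F, 1 gene was called in place of 0 with RLE size factors, cardiomyocyte marker scaling, no low-count filter, sex as a covariate, the replicate block by number and DESeq2. Between the ventricles of Sham-H, 0 were called in place of 1 with marker scaling and without the filter, and 2 with the replicate block by animal. Between those of AOB-F, 5 in place of 3 were called with marker scaling and with LV AOB-F replicates 6 and 7 left out. For LV age, 2 in place of 1 were called with RLE and DESeq2, and 3 with marker scaling and the replicate block by number. For the change of the RV-to-LV difference with age, 3 in place of 1 were called with marker scaling and the animal block, and 2 with DESeq2. By sex, 3 in place of 0 were called in the RV with marker scaling, and 2 in place of 1 in the LV with DESeq2. For LV AOB-F, 0 in place of 2 were called in males alone and with replicates 6 and 7 left out, and both of these settings were chosen after seeing the data.

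Leaving out 1 library at a time gave 0 to 3 called genes for RV PAB-F, 1 to 4 for LV AOB-F, 0 to 1 for the ventricles of Sham-H, 1 to 3 for LV age, 1 to 3 for the change of the RV-to-LV difference, 0 to 4 for AOB-F females and 0 to 1 for the difference between the sexes. For LV AOB-F, the extremes were without LV Sham-F replicate 7 (1) and without LV AOB-F replicate 4 (4). For LV age they came without LV Sham-H replicate 3 or 4 or LV Sham-F replicate 3, 4 or 9, for the RV-to-LV difference without LV Sham-H replicate 3 or 4 or LV Sham-F replicate 3, 8 or 9, and by sex without LV AOB-F replicate 5 (4 and 1) or 7 (0). Ckb between the ventricles of Sham-H was lost without any of the 7 RV libraries or LV replicate 3, 4 or 5. The replicate block by animal changed no other member call than those given here and for Slc6a8 in PAB-F. Blocking by number joins different animals, whose correlations ranged from -0.446 to 0.452, and is a check only.

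Over all genes, marker scaling called 4028 genes in place of 1541 for LV AOB-F, 828 in place of 2 for LV AOB-H, 1138 in place of 538 for RV PAB-H, 797 in place of 2510 for the ventricles of Sham-H, 2065 in place of 954 for those of AOB-H, 29 in place of 15 for those of PAB-H and 707 in place of 1165 for LV sex. Without the filter 346 and with the sex covariate 326 genes were called for RV PAB-H. The animal block called 3888 for the ventricles of Sham-H, 1643 for AOB-H and 180 for PAB-H. DESeq2 called 35 for LV AOB-H, 40 for the ventricles of PAB-H and 22 in place of 6 for RV age, for which the number block called 18. For the PAB-F response between ventricles the count of 42 ranged from 16 without the filter to 350 with the animal block. For RV AOB-F the count of 8 ranged from 2 to 15. The cause of these differences was not tested.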
